A study of Homo sapiens with 18 samples.

Results

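The ISG15 conjugation system was examined in HEK293, a cell line of human embryonic kidney, engineered to overexpress the murine flagellin receptor TLR5. Its 6 members were taken by name: ISG15, UBA7, UBE2L6, HERC5, HERC6 and USP18. Each had 1 row in the array table, and all 6 were among the 16111 genes tested, since each lay above its own array's median on all 18 arrays. The filter asked for 3 arrays. The cells received flagellin of Salmonella Typhimurium SL1344 (ST), EcN flagellin, from E. coli Nissle, a probiotic strain, or no flagellin (mock), and RNA was taken at 120 or 60 min. For every array, mock included, the labels give a multiplicity of infection of 10 and cells at passage 7. Each of the 6 groups had 3 arrays lettered A, B and C, which the labels call biological. Whether a letter is a separate culture is not given, so p-values measure the spread between these arrays. All groups, mock included, carry the murine TLR5 transgene and grew in media whose lysine and arginine were isotope-labelled as heavy, medium or light. Which medium each array's cells had is not given, so a difference between media cannot be told apart from one between groups. The human array does not measure the murine transgene.

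ISG15 is a small ubiquitin-like protein that cells make after interferon or infection and attach to lysines of other proteins. The attachment runs as for ubiquitin: UBA7 is the activating enzyme (E1), UBE2L6 the conjugating enzyme (E2), and HERC5 the main ligase (E3) in human cells. HERC6, a relative and neighbour of HERC5, serves as the main ISG15 ligase in mouse. USP18 takes ISG15 off again and also dampens signalling at the type I interferon receptor. The genes are known as interferon-stimulated genes, which are switched on by ISGF3, a transcription factor complex that holds IRF9 and binds the interferon-stimulated response element. TLR5 itself is best known for turning on NF-kB through MyD88.

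The start regions of the members are shown because the genes share a class of inducer. They run from 250 bases before to 50 bases after the start, are taken from RefSeq on GRCh38.p14, and are written 5′ to 3′ on the gene's strand. Windows were at hand for 4 members, with a pair of start sites for UBE2L6. Capitals mark matches to the core letters of the interferon-stimulated response element, GAAANNGAA or, on the other strand, TTCNNTTTC, where N is any base. ISG15 lies at chr1:1013247-1013546 on the plus strand, HERC5 at chr4:88456869-88457168 and HERC6 at chr4:88378602-88378901, both on the plus strand, and the first UBE2L6 window at chr11:57567886-57568185 on the minus strand.
ISG15: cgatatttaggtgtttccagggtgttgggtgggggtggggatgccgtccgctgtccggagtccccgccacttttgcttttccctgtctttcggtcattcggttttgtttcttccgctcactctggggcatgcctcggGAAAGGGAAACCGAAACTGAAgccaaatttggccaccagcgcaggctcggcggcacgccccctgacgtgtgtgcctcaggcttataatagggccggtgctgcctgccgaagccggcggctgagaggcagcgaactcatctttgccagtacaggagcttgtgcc
HERC5: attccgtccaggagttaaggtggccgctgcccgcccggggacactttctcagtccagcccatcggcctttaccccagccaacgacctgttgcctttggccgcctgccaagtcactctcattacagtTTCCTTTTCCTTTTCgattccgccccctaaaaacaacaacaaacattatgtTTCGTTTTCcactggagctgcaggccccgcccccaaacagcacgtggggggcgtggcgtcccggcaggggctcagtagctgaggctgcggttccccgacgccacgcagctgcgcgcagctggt
HERC6: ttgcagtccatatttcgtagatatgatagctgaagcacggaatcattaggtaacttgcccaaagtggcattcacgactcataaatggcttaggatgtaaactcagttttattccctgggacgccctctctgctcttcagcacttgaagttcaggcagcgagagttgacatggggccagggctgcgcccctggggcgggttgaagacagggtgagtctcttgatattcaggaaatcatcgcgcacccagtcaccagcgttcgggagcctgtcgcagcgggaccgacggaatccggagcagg
UBE2L6: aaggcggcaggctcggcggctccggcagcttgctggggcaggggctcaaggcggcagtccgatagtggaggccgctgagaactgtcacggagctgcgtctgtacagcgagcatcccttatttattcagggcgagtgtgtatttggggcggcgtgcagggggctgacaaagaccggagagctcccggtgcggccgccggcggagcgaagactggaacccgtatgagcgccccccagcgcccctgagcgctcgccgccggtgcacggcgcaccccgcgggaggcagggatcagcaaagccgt
ISG15 held 3 overlapping matches on the gene's strand, between positions -113 and -93 from the start. HERC5 held 3 matches on the other strand, an overlapping pair between -124 and -110 and another between -73 and -65. The HERC6 window and both UBE2L6 windows (the second at chr11:57567623-57567922) do not contain these letters. Of all 35116 RefSeq windows of this length, 8.11% held at least 1 match and 0.088% held 3 or more. The letters GGANNTTCC or, on the other strand, GGAANNTCC, a loose form of the NF-kB site, were in none of the 5 windows and in 4.56% of all windows. A match describes letters in a window and does not show binding. UBA7 and USP18 are named here without a window.

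Levels are log2 array values as deposited and differences are log2 fold changes with their SE from limma, a linear model with 6 group means fitted to all genes. A gene was called, and is said to have risen or fallen, at a Benjamini-Hochberg adjusted p under 0.05 over the 16111 genes. Counts at an unadjusted limma p under 0.05 are a looser measure, and no share of all genes at that level is given beside them. That share is far above the share called: with EcN at 120 min, HERC6 had an unadjusted limma p of 0.0227 at rank 1687. An exact permutation of 3 arrays against 3 cannot give a p below 0.10, so no such test is given for single genes. Some arrays stood apart or carried conflicting labels. The 6 ST arrays are named ST flagellin in their titles, source names and treatment fields and mock in their descriptions, and the titles were followed. NFKBIA, an inhibitor of NF-kB and one of its first targets, was at 10.15 to 10.85 on 5 arrays (ST 60 min C, ST 120 min C, EcN 60 min C, EcN 120 min C and mock 120 min A) and at 8.09 to 8.82 on the other 13. High NFKBIA thus stood on 1 array labelled mock and was not seen on the 8 flagellin arrays lettered A or B. ISG15 did not divide the arrays this way, since it spanned 3.94 to 6.62 on the 5 high-NFKBIA arrays and 3.17 to 7.08 on the other 13. Results are given below with and without those 5 arrays where that ended a call.

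HEK293 cells carry neural as well as epithelial features, and all 6 markers listed for them passed the filter, with NEFL, a neurofilament gene, at 9.90 to 10.65. Passing did not mean a high level. NEFM, another neurofilament gene, lay near or below the array medians of 2.27 to 2.32, and below them on all 6 mock arrays. The summed level of the 6 markers at 60 min was 10.93 to 11.07 on ST arrays, 10.99 to 11.08 on EcN arrays and 10.70 to 10.91 on mock arrays. At that time KRT18, a keratin, rose by 0.46 with ST and by 0.44 with EcN (limma adjusted p = 0.0416 and 0.0447). With each flagellin 5 of the 6 markers averaged above mock at 60 min. VIM went the other way without a call. It was at 7.61, 7.94 and 8.07 with ST, 7.55, 7.74 and 7.77 with EcN, and 8.01, 8.27 and 8.39 in mock. The sum of the 6 markers at 120 min was 10.89 to 10.99 on ST arrays, 10.79 to 10.97 on EcN arrays and 10.67 to 10.99 on mock arrays. Of 6 leukocyte markers, PTPRC, LYZ, CD3E and MS4A1 did not pass the filter. The summed level of the leukocyte list at 60 min was 9.28 to 9.44 on ST arrays, 9.37 to 9.47 on EcN arrays and 8.95 to 9.27 on mock arrays. CD68, which is also made outside leukocytes, was called higher with EcN at 60 min. The 5 intestinal epithelium markers summed at 60 min to 8.98 to 9.09 on ST arrays, 8.66 to 8.87 on EcN arrays and 9.28 to 9.39 on mock arrays. Of 5 fibroblast markers 4 had a row and 3 passed, all but DCN. The sums over these 4 at 60 min were 5.97 to 6.10 on ST arrays, 6.44 to 6.78 on EcN arrays and 6.23 to 6.57 on mock arrays. The fibroblast sums at 120 min were 5.83 to 5.99 on ST arrays, 6.31 to 6.62 on EcN arrays and 6.29 to 6.81 on mock arrays, the intestinal sums 8.93 to 9.30, 8.56 to 8.79 and 8.76 to 9.35 on the same groups, and the leukocyte sums 9.31 to 9.49, 9.32 to 9.37 and 9.17 to 9.48. LGR5, an intestinal stem cell marker, fell by 0.59 with EcN at 60 min, and LUM, a fibroblast matrix gene, fell by 1.00 with ST at 120 min. A sum of this kind mostly follows the highest gene of its list: NEFL among HEK293, CD68 among leukocyte and LGR5 among intestinal markers. On the mock arrays of 60 min these alone were at 10.02 to 10.31, 8.89 to 9.22 and 8.99 to 9.14. A shift of a sum need not be a shift of the whole list. The part of the markers in the results was not tested. In RNA from whole cultures, fewer cells that make a transcript and less of it per cell cannot be told apart.

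At 60 min, the modifier ISG15, the E2 enzyme UBE2L6 and the ligase HERC6 rose with both flagellins. At 120 min ISG15 and HERC6 rose with ST, and no member was called with EcN. ISG15 moved furthest, 8.74-fold with ST at 60 min. UBA7, HERC5 and USP18 averaged above mock in all 4 comparisons without being called in any. No member was called lower in any comparison.

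**Figure D1:**
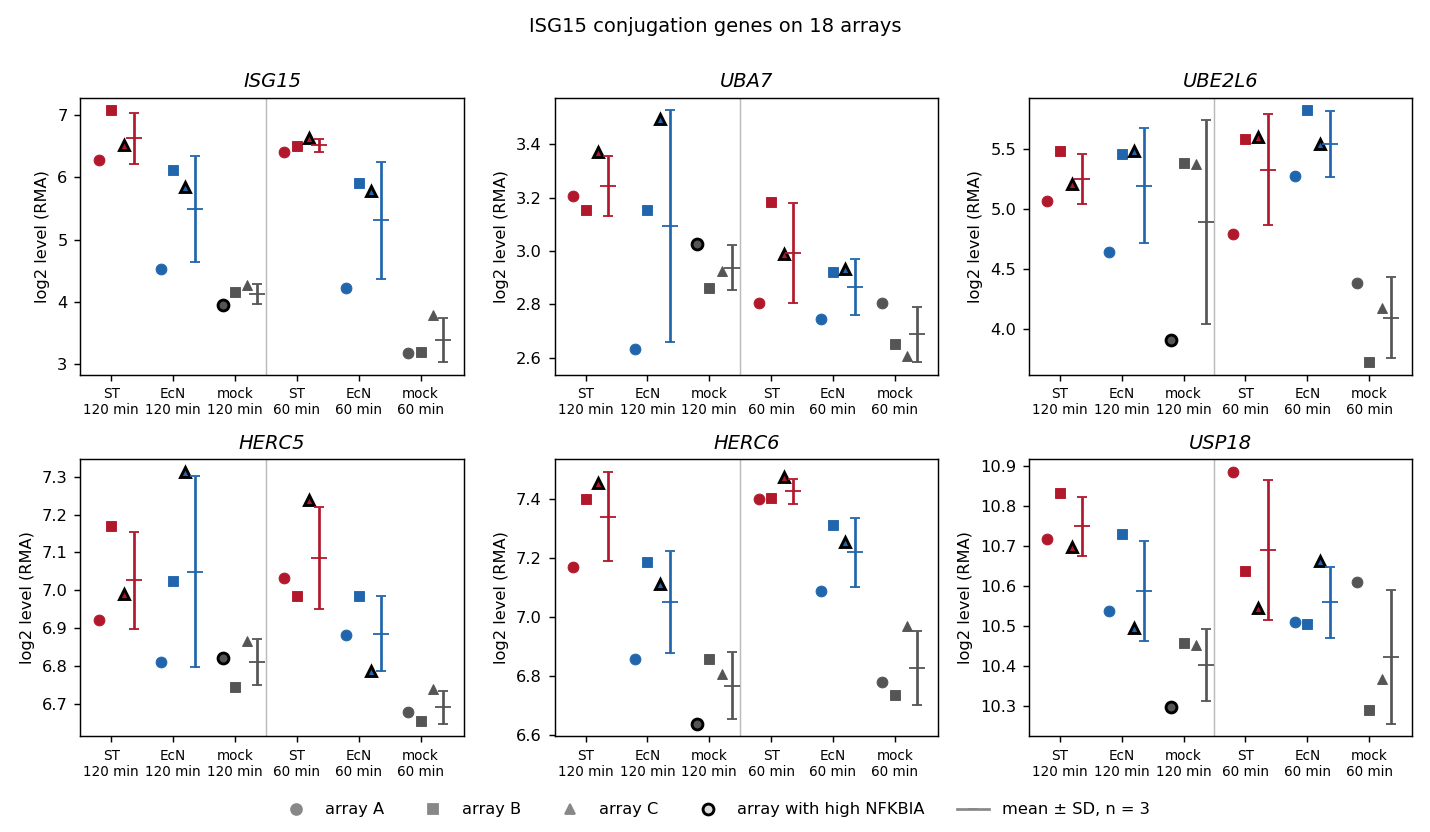
Levels of the 6 members (log2 array value, 1 panel per gene, each with its own vertical scale) on the 3 arrays of each group, with the mean ± SD drawn beside them; the symbol gives the letter, and black edges mark the 5 arrays with high NFKBIA. ISG15 shows the widest spread over the groups, with means of 6.62 in ST 120 min and 3.38 in mock 60 min, whereas the USP18 means lie between 10.40 and 10.75.

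ISG15, the modifier itself, was measured by transcript cluster 16657594. At 60 min it was at 6.41, 6.50 and 6.62 (arrays A, B, C) with ST, at 4.22, 5.91 and 5.79 with EcN, and at 3.17, 3.19 and 3.79 in mock. Every ST array lay above every EcN array, and every EcN array above every mock array, with EcN A nearest to mock. At 120 min the levels were 6.27, 7.08 and 6.53 with ST, 4.53, 6.12 and 5.84 with EcN, and 3.94, 4.15 and 4.28 in mock. The same order without overlap held at 120 min, again with EcN A lowest of its group.
With ST at 60 min ISG15 rose by 3.13 ± 0.41 (limma adjusted p = 0.00532), the smallest p of all genes in that comparison and the 3rd highest fold change. With EcN at 60 min it rose by 1.92 ± 0.41, or 3.80-fold (limma adjusted p = 0.0199). With ST at 120 min it rose by 2.50 ± 0.41, or 5.66-fold, the highest fold change of all genes (limma adjusted p = 0.0331). The EcN value at 120 min, 1.37 ± 0.41, or 2.59-fold, was not called (limma adjusted p = 0.119).
The call with ST at 60 min held when any 1 of the 18 arrays was left out, and without the 5 high-NFKBIA arrays (3.07, limma adjusted p = 0.0262). Without those 5 arrays the EcN value at 60 min was 1.68 (limma adjusted p = 0.0682) and the ST value at 120 min was 2.46 (limma adjusted p = 0.0596), both no longer called. Leaving out mock 60 min B or C, or EcN 60 min B or C, also ended the EcN call (limma adjusted p of 0.0629 to 0.0723), and leaving out mock 120 min B, EcN 120 min B or any ST 120 min array ended the ST call at 120 min (limma adjusted p of 0.0503 to 0.158).

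UBA7, the E1 enzyme that activates ISG15, was measured by transcript cluster 16954217. At 60 min it was at 2.81, 3.18 and 2.99 with ST, at 2.75, 2.92 and 2.93 with EcN, and at 2.80, 2.65 and 2.61 in mock. ST arrays all lay above mock, though ST A, at 2.806, was next to mock A, at 2.805, and EcN A fell among the mock arrays. At 120 min the levels were 3.21, 3.15 and 3.37 with ST, 2.63, 3.15 and 3.49 with EcN, and 3.03, 2.86 and 2.93 in mock. ST again lay above mock throughout, while the EcN arrays spread over more than the whole mock range.
The differences from mock were 0.30 ± 0.16 (limma adjusted p = 0.288) with ST and 0.18 ± 0.16 (limma adjusted p = 0.534) with EcN at 60 min. At 120 min they were 0.31 ± 0.16 (limma adjusted p = 0.351) with ST and 0.16 ± 0.16 (limma adjusted p = 0.675) with EcN. The 95% intervals ran from -0.04 to 0.65 with ST at 60 min and from -0.17 to 0.52 with EcN at 60 min, so both take in 0. UBA7 lay at 2.61 to 3.49 on the 18 arrays, not far above the array medians of 2.27 to 2.32. Its lack of a call therefore does not show that it was unchanged.

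UBE2L6, the E2 enzyme that carries ISG15 and can also carry ubiquitin, was measured by transcript cluster 16738544. At 60 min it was at 4.79, 5.59 and 5.60 with ST, at 5.27, 5.83 and 5.54 with EcN, and at 4.38, 3.72 and 4.17 in mock. All 6 flagellin arrays lay above all mock arrays, with ST A closest to them. At 120 min the levels were 5.07, 5.48 and 5.21 with ST, 4.64, 5.46 and 5.49 with EcN, and 3.90, 5.39 and 5.38 in mock. Mock A thus stayed within the range of the mock arrays of 60 min, while mock B and C reached the levels seen with flagellin.
UBE2L6 rose by 1.24 ± 0.35 with ST, or 2.35-fold (limma adjusted p = 0.0496), and by 1.45 ± 0.35 with EcN, or 2.74-fold (limma adjusted p = 0.0283), at 60 min. Without the 5 high-NFKBIA arrays the ST value at 60 min was 1.10 and not called (limma adjusted p = 0.0740). The ST call lasted with mock 120 min A, B or C or EcN 120 min A left out and ended with each of the other 14 arrays left out (limma adjusted p of 0.0569 to 0.164), and the EcN call ended without mock 60 min B or C or any EcN 60 min array (limma adjusted p of 0.0527 to 0.103). The values at 120 min were 0.36 ± 0.35 with ST (limma adjusted p = 0.641) and 0.31 ± 0.35 with EcN (limma adjusted p = 0.703). Those values rest on mock A: without that array they were -0.13 with ST and -0.19 with EcN.

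HERC5, the main human ISG15 ligase, was measured by transcript cluster 16968765. At 60 min it was at 7.03, 6.99 and 7.24 with ST, at 6.88, 6.99 and 6.79 with EcN, and at 6.68, 6.66 and 6.74 in mock. Neither flagellin group overlapped mock. At 120 min the levels were 6.92, 7.17 and 6.99 with ST, 6.81, 7.02 and 7.31 with EcN, and 6.82, 6.75 and 6.87 in mock. ST stayed above mock, and EcN A lay among the mock arrays.
With ST at 60 min the difference was 0.39 ± 0.12 (limma adjusted p = 0.0618), short of the threshold. It passed with array quality weights (0.38, limma adjusted p = 0.0414), with the trend and robust settings (0.39, limma adjusted p = 0.0400), and when EcN 120 min A or C was left out. The other differences from mock were 0.19 ± 0.12 with EcN at 60 min (limma adjusted p = 0.329), 0.22 ± 0.12 with ST at 120 min (limma adjusted p = 0.367) and 0.24 ± 0.12 with EcN at 120 min (limma adjusted p = 0.326).

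HERC6, the relative of HERC5 beside it on chromosome 4, was measured by transcript cluster 16968735. At 60 min it was at 7.40, 7.40 and 7.47 with ST, at 7.09, 7.31 and 7.25 with EcN, and at 6.78, 6.74 and 6.97 in mock. The 3 ST arrays lay above all EcN arrays, and the EcN arrays above all mock arrays. At 120 min the levels were 7.17, 7.40 and 7.45 with ST, 6.86, 7.18 and 7.11 with EcN, and 6.64, 6.86 and 6.81 in mock. ST and mock stayed apart, EcN A was level with mock B, and ST A fell among the EcN arrays.
With ST HERC6 rose by 0.60 ± 0.11, or 1.51-fold, at 60 min (limma adjusted p = 0.0141) and by 0.57 ± 0.11, or 1.49-fold, at 120 min (limma adjusted p = 0.0419). With EcN it rose by 0.39 ± 0.11, or 1.31-fold, at 60 min (limma adjusted p = 0.0492), and the value at 120 min was 0.28 ± 0.11 (limma adjusted p = 0.217). Without the 5 high-NFKBIA arrays none of the 3 was called: 0.57 with ST at 60 min (limma adjusted p = 0.0533), 0.45 with ST at 120 min (limma adjusted p = 0.141) and 0.37 with EcN at 60 min (limma adjusted p = 0.121). With 1 array left out, the ST call at 60 min ended without mock 60 min B or ST 60 min C (limma adjusted p of 0.0541 and 0.0507), the ST call at 120 min ended for 11 of 18 arrays (up to 0.158 without mock 120 min B) and the EcN call for 15 of 18 (up to 0.157 without mock 60 min B).

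USP18, the protease that removes ISG15, was measured by transcript cluster 16926942. Near-identical copies of this gene exist in the human genome, and whether the probes tell them apart is not given, so its value is uncertain. At 60 min it was at 10.88, 10.64 and 10.55 with ST, at 10.51, 10.50 and 10.66 with EcN, and at 10.61, 10.29 and 10.37 in mock. Both flagellin groups overlapped mock through mock A. At 120 min the levels were 10.72, 10.83 and 10.70 with ST, 10.54, 10.73 and 10.49 with EcN, and 10.30, 10.46 and 10.45 in mock. Both flagellin groups then lay above mock, with EcN C, at 10.49, closest to mock B, at 10.46.
The largest USP18 difference was 0.35 ± 0.11, with ST at 120 min, and it was not called (limma adjusted p = 0.135). With ST at 60 min it was 0.27 ± 0.11 (limma adjusted p = 0.168), and with EcN it was 0.14 ± 0.11 at 60 min (limma adjusted p = 0.486) and 0.18 ± 0.11 at 120 min (limma adjusted p = 0.428).

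**Figure D2:**
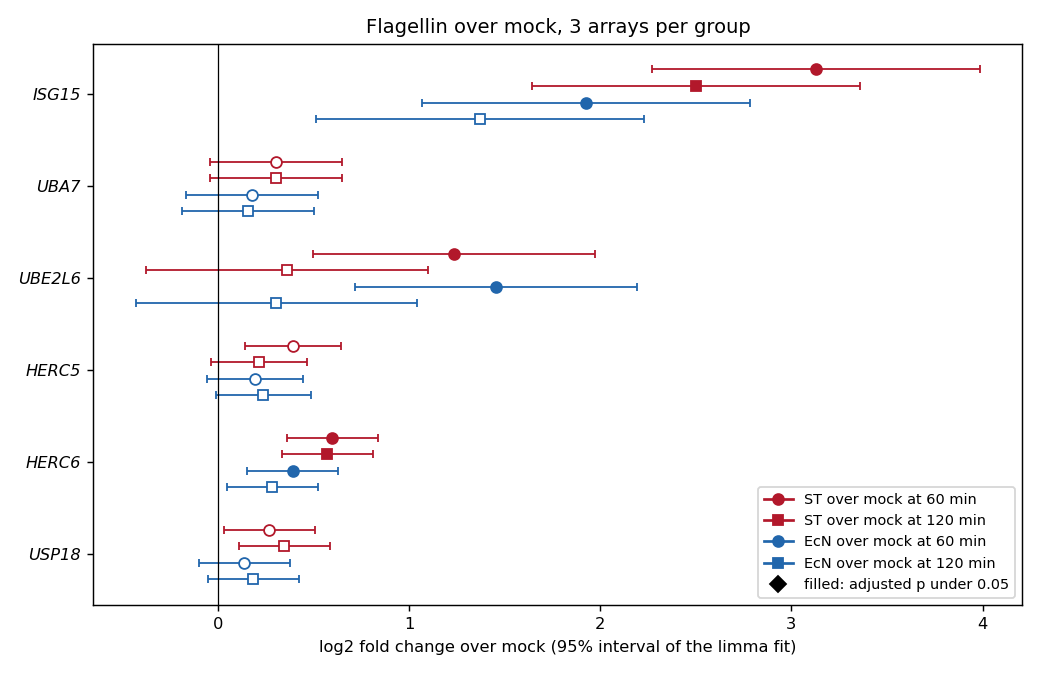
Log2 fold changes over mock of the 6 members with ST and EcN at each time; bars are 95% intervals from limma, filled points are called and open points are not. ISG15 is furthest from 0 in each comparison, at 3.13 with ST and 1.92 with EcN at 60 min.

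Over the 6 members, ST at 60 min had 3 called higher, against a background of 2.23% of all genes called higher and 3.03% called lower. EcN at 60 min had the same 3 called higher, with 3.08% of all genes called higher and 3.37% lower. The ST and EcN comparisons of a time share their mock arrays, so calls that both make are not independent. ST at 120 min had 2 called higher, with a background of 0.31%. EcN at 120 min had 0 of 6 called by limma, with a background of 0.0248% called higher. There, 2 members (ISG15 and HERC6) had an unadjusted p under 0.05, a level that background does not measure. Many other genes passed it too, since HERC6, with an unadjusted limma p of 0.0227, was at rank 1687. The median difference over the 6 was 0.50 with ST and 0.29 with EcN at 60 min, and 0.35 with ST and 0.26 with EcN at 120 min, beside medians over all genes of 0.00 with ST and 0.01 with EcN at 60 min and 0.00 with each at 120 min. All 6 lay above 0 in each of the 4.
Overlap between the groups was also counted, with no test. All 3 ST arrays lay above all 3 mock arrays for 5 members at 60 min (all but USP18), as they did for 14.2% of all genes, and for 5 members at 120 min (all but UBE2L6), as for 8.81% of all genes. All EcN arrays lay above all mock arrays for 4 members at 60 min (ISG15, UBE2L6, HERC5 and HERC6), beside 16.7% of all genes, and for 3 at 120 min (ISG15, HERC6 and USP18), beside 8.52%. UBA7 with ST at 60 min and HERC6 with EcN at 120 min entered these counts by margins far below the array spread.

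ST and EcN flagellin were compared directly. ISG15 was higher on every ST array than on any EcN array at both times. The difference of ST over EcN was 1.20 ± 0.41 at 60 min, with a 95% interval of 0.35 to 2.06 (limma adjusted p = 0.401), and 1.13 ± 0.41 at 120 min, with an interval of 0.27 to 1.99 (limma adjusted p = 0.314). Neither was called, although the first was the 2nd highest and the other the 4th highest fold change among all genes. HERC6 differed by 0.21 ± 0.11 at 60 min (limma adjusted p = 0.600) and by 0.29 ± 0.11 at 120 min (limma adjusted p = 0.344). For UBE2L6 the values were -0.22 ± 0.35 at 60 min and 0.06 ± 0.35 at 120 min, with intervals of -0.96 to 0.52 and -0.68 to 0.79, which leave room for differences either way. UBA7, HERC5 and USP18 lay between -0.02 and 0.20 at both times.
By limma, 0 of 6 members and 0% of all genes were called between ST and EcN at either time. At an unadjusted p under 0.05 there were 1 member at 60 min (ISG15) and 2 at 120 min (ISG15 and HERC6), all higher with ST. Many other genes passed that level too. ISG15 at 60 min had an unadjusted limma p of 0.00895 at rank 359. HERC6 at 120 min had an unadjusted limma p of 0.0208 at rank 972. All ST arrays exceeded all EcN arrays for ISG15, HERC5 and HERC6 at 60 min, beside 8.14% of all genes, and for ISG15 alone at 120 min, beside 10.5% of all genes.

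Within a treatment, the later time was set against the earlier. In mock, ISG15 was at 4.12 ± 0.17 at 120 min and 3.38 ± 0.35 at 60 min (SD, n = 3 each), and UBE2L6 at 4.89 ± 0.85 and 4.09 ± 0.34 for the same times. The limma differences, 0.74 ± 0.41 for ISG15 (adjusted p = 0.475) and 0.80 ± 0.35 for UBE2L6 (adjusted p = 0.383), were not called. Of the 6 members 0 were called, and 0% of all genes were called. At an unadjusted p under 0.05 there was 1 member, UBE2L6. Many other genes passed that level too, since UBE2L6, with an unadjusted limma p of 0.0352, was at rank 1481. For ISG15, UBA7 and HERC5 all mock arrays of 120 min lay above all those of 60 min, as for 5.62% of all genes.
The mock comparison turned on 1 array. Without mock 120 min A the UBE2L6 difference was 1.29 (limma adjusted p = 0.0181), and 979 genes were called over the whole table. IFI44L, another interferon-stimulated gene, split the mock arrays alike: it was at 2.25 to 3.15 on mock 120 min A and the 3 mock arrays of 60 min, and at 4.84 and 4.83 on mock 120 min B and C, beside 4.80 to 6.55 on the 12 flagellin arrays.
With flagellin no member was called between the times. ISG15 differed by 0.11 ± 0.41 with ST (limma adjusted p = 0.998) and by 0.19 ± 0.41 with EcN (limma adjusted p = 0.950) for 120 over 60 min. Of the other 5 members, the differences lay between -0.09 and 0.25 with ST and between -0.35 and 0.23 with EcN. Limma called 0 of 6 members and 0% of all genes in both comparisons, with 0 members at an unadjusted p under 0.05.
The change of each flagellin's effect over mock between the times was tested as an interaction. For UBE2L6 it was -0.87 ± 0.49 with ST (limma adjusted p = 0.526) and -1.15 ± 0.49 with EcN (limma adjusted p = 0.378), and for ISG15 it was -0.63 ± 0.57 with ST (limma adjusted p = 0.708) and -0.55 ± 0.57 with EcN (limma adjusted p = 0.731). No member and 0% of all genes were called for either flagellin. At an unadjusted p under 0.05 there were 0 members with ST and 1, UBE2L6, with EcN, where its unadjusted limma p of 0.0325 was at rank 1385. Being called at 60 min and not at 120 min therefore does not show that an effect differed between the times. Without mock 120 min A the UBE2L6 change with EcN was -1.64 (limma adjusted p = 0.0307).

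Ordered by mean level, the groups ran differently for each gene. ISG15 was at 6.62 ± 0.41 in ST 120 min, 6.51 ± 0.11 in ST 60 min, 5.50 ± 0.85 in EcN 120 min, 5.31 ± 0.94 in EcN 60 min, 4.12 ± 0.17 in mock 120 min and 3.38 ± 0.35 in mock 60 min (SD, n = 3 each). In that order, arrays of neighbouring groups overlapped between the times of each flagellin and between EcN 60 min and mock 120 min. They did not overlap between ST 60 min and EcN 120 min or between the mock groups.
UBE2L6 was highest in EcN 60 min, at 5.55 ± 0.28, and lowest in mock 60 min, at 4.09 ± 0.34, with all neighbours overlapping. HERC6 was ordered by treatment, with ST 60 min at 7.42 ± 0.04, ST 120 min at 7.34 ± 0.15, EcN 60 min at 7.22 ± 0.12, EcN 120 min at 7.05 ± 0.17, mock 60 min at 6.83 ± 0.12 and mock 120 min at 6.77 ± 0.11, and all neighbours overlapped. HERC5 ran between 7.09 ± 0.13 in ST 60 min and 6.69 ± 0.04 in mock 60 min, and its neighbours overlapped except the mock groups. UBA7, between 3.24 ± 0.11 in ST 120 min and 2.69 ± 0.10 in mock 60 min, and USP18, between 10.75 ± 0.07 in ST 120 min and 10.40 ± 0.09 in mock 120 min, had overlapping neighbours throughout.

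The members also varied within groups. The residual SD of ISG15 was 0.57, above that of 99.3% of genes, and that of UBE2L6 was 0.48, above 98.5% of genes. The other 4 had residual SDs of 0.13 to 0.21, beside a median over all genes of 0.18. Array A was the lowest of its group for 4 of the 6 members in ST 60 min, 4 in ST 120 min, 4 in EcN 60 min, 5 in EcN 120 min and 4 in mock 120 min. In mock 60 min array B was lowest for 4. In both EcN groups array A was lowest for ISG15, UBA7, UBE2L6 and HERC6.

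**Figure D3:**
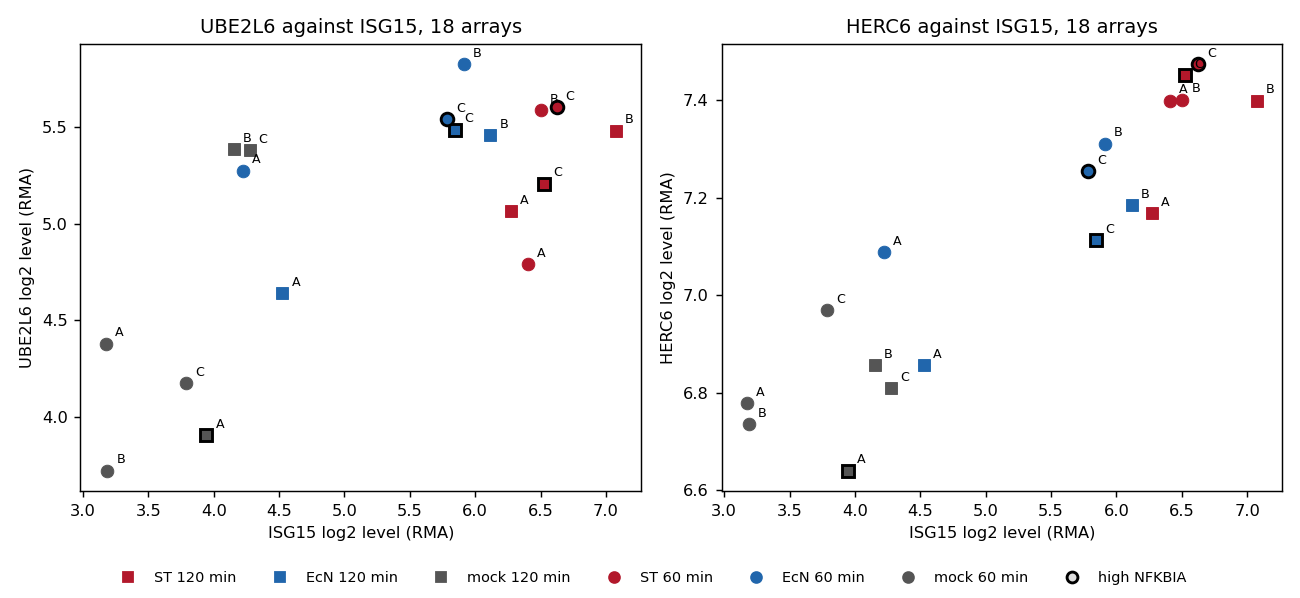
Levels of HERC6 and of UBE2L6 (log2 array values) against that of ISG15 on the same array, 1 point per array, lettered, with colour for the treatment, shape for the time and black edges for high NFKBIA. HERC6 lies between 6.64 and 7.47, mostly higher where ISG15 is higher, while mock 120 min B and C, at ISG15 levels of 4.15 and 4.28, lie at UBE2L6 levels of 5.39 and 5.38.

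The genes most like each member were ranked by Pearson r over the 18 arrays, used as a measure of likeness among all tested genes other than the members. The arrays share their groups, so r holds group differences, and the likeness of deviations from the group means is given beside it for ISG15. For ISG15 they were OAS1 (0.97), OAS3 (0.97), IFI35 (0.96), IFI6 (0.95) and SAMD9 (0.93), all known as interferon-stimulated genes. By deviations they were SAMD9 (0.90), OAS1 (0.90), OAS3 (0.88), SSBP3-AS1 (0.86) and EPSTI1 (0.86).
HERC6 was most like IFIT5 (0.95) and SAMD9 (0.92), and UBE2L6 most like IFIT3 (0.90) and IFITM1 (0.89), again interferon-stimulated genes. The nearest genes of the remaining 3 were not of that class: MCM5 (0.83) and MT3 (0.78) for UBA7, HEXA (0.87) and WDR13 (0.83) for HERC5, and CWF19L2 (0.87) and UTP3 (0.85) for USP18. UBA7 lay not far above the array medians, and the USP18 row may also measure copies of that gene. The likenesses of UBA7 and USP18 are therefore uncertain. Among the members themselves, ISG15 was most like HERC6 (0.92 over the arrays, 0.82 by deviations), and the lowest r over the arrays was that of UBA7 and USP18 (0.37, and -0.11 by deviations).

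The rest of the pathway was read from gene lists. The interferon receptor and ISGF3 list had 12 of 14 genes tested. IRF9, the DNA-binding subunit of ISGF3, rose by 1.59 ± 0.21 with ST (limma adjusted p = 0.00532) and by 1.08 ± 0.21 with EcN (limma adjusted p = 0.0186) at 60 min. IRF7, a factor that amplifies interferon production, rose by 1.29 ± 0.23 with ST at 60 min (limma adjusted p = 0.0124) and by 1.42 ± 0.23 with ST at 120 min (limma adjusted p = 0.0331).
Calls in the other direction came from the same list. With ST at 60 min PIAS1, an inhibitor of cytokine signalling, fell by 0.57. With EcN at 60 min PIAS1 fell by 0.47, IFNAR1, a subunit of the type I interferon receptor, fell by 0.44, and SOCS3, a feedback inhibitor of cytokine receptors, fell by 0.53. The list had 2 called higher and 1 lower with ST and 1 higher and 3 lower with EcN at 60 min, and 1 higher with ST at 120 min. Over all genes at 60 min, 2.23% were called higher and 3.03% lower with ST, and 3.08% higher and 3.37% lower with EcN. With ST at 120 min 0.31% of all genes were called higher. With EcN at 120 min limma called 0 of 12, and at an unadjusted p under 0.05 there were 1 higher and 2 lower. The list medians were 0.05, 0.15, 0.03 and 0.04 for ST at 60 min, ST at 120 min, EcN at 60 min and EcN at 120 min.
The interferons themselves gave no call. Of 11 type I and III interferon genes listed, 4 passed the filter (IFNA5, IFNL1, IFNL2 and IFNL3), and IFNB1, IFNA1, IFNA2, IFNA4, IFNA8, IFNE and IFNK did not. Limma called 0 of the 4 in each comparison with mock, with 1 (IFNL2, ST at 60 min) at an unadjusted p under 0.05. The IFNL2 value there was 0.48 ± 0.16 (limma adjusted p = 0.0856). IFNA5, at 1.64 to 3.34, and IFNL1, at 1.96 to 3.18, lay near the array medians of 2.27 to 2.32. The lack of a call therefore does not show that the interferons were unchanged.

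Known targets of ISG15 conjugation were listed from textbook knowledge, with 19 of 24 tested. With ST at 60 min 4 rose: RIGI by 1.62 and IFIH1 by 0.82, both cytosolic sensors of viral RNA, IFIT1, which binds viral RNA caps, by 1.57, and the antiviral enzyme RSAD2 by 1.46. With EcN at 60 min RIGI rose by 1.11, IFIT1 by 1.27, RSAD2 by 1.52 and BECN1, an autophagy gene, by 0.49. With ST at 120 min IFIH1 rose by 0.67 and SAMHD1, which breaks down nucleotides, by 0.72. The shares of all genes called higher were 2.23% with ST at 60 min, 3.08% with EcN at 60 min and 0.31% with ST at 120 min. With EcN at 120 min limma called 0 of 19, with 5 higher at an unadjusted p under 0.05. None fell in these 4 comparisons, and the medians were 0.07, 0.26, 0.13 and 0.08 for ST at 60 min, ST at 120 min, EcN at 60 min and EcN at 120 min. RIGI, IFIH1, IFIT1, RSAD2 and SAMHD1 are interferon-stimulated genes in their own right.
The other ISG15 ligases, proteases and partners had 10 of 11 genes tested, and TRIM25 is not analysed here. Limma called 0 of the 10 against mock in each of the 4 comparisons, with 1 lower at an unadjusted p under 0.05 in each and 1 higher with ST at 120 min. ARIH1, a ligase reported to work with ISG15, lay between -0.0011 and 0.10 in the 4. USP21, a protease with some activity on ISG15, was at -0.16 with ST and -0.19 with EcN at 60 min. At 120 min its levels were 8.18, 8.12 and 8.29 with ST, 8.07, 8.14 and 8.16 with EcN, and 8.49, 8.55 and 8.34 in mock, again without a call.

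Relatives of each member in the wider ubiquitin family were set beside it. Over all genes at 60 min, 2.23% were called higher and 3.03% lower with ST, and 3.08% higher and 3.37% lower with EcN. Among other E1 enzymes 7 of 9 were tested, and MOCS3, which activates URM1, fell by 0.67 with EcN at 60 min (limma adjusted p = 0.0378). UBA1, the main ubiquitin E1, was at -0.15 with ST and -0.14 with EcN at 60 min. Among ubiquitin and other ubiquitin-like modifiers 9 of 15 were tested, and URM1, a modifier that also carries sulfur to transfer RNAs, fell by 0.54 with EcN at 60 min (limma adjusted p = 0.0472).
Other E2 enzymes had 17 of 24 tested, and UBE2L3, the closest relative of UBE2L6, is not analysed here. At 60 min 5 of the 17 fell with ST and 3 with EcN, beside 3.03% and 3.37% of all genes called lower. None of the 17 rose. UBE2A, which works on histone H2B, fell by 0.96 ± 0.19 with ST (limma adjusted p = 0.0150), UBE2E1 by 0.61 and UBE2R2 by 0.51. With EcN UBE2J1, an enzyme of protein degradation at the endoplasmic reticulum, fell by 0.58, UBE2E1 by 0.43 and UBE2R2 by 0.40. The E2 median was -0.17 with ST and -0.22 with EcN at 60 min. At 120 min limma called 0 of 17, with 3 lower with ST and 4 lower with EcN at an unadjusted p under 0.05.
Other HERC and HECT ligases had 18 of 20 tested. SMURF1, which degrades SMAD proteins, rose by 0.71 with EcN at 60 min (limma adjusted p = 0.0218), and no other was called against mock. HERC3 was at 0.05 with ST and -0.08 with EcN at 60 min, and HERC4 at -0.02 with ST and 0.01 with EcN. Other USP proteases had 21 of 22 tested, and USP37, a cell cycle protease, fell by 0.47 with ST and by 0.59 with EcN at 60 min. At 120 min limma called 0 of 21, beside 3 higher with ST, 2 higher with EcN and 1 lower with EcN at unadjusted p under 0.05.

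**Figure D4:**
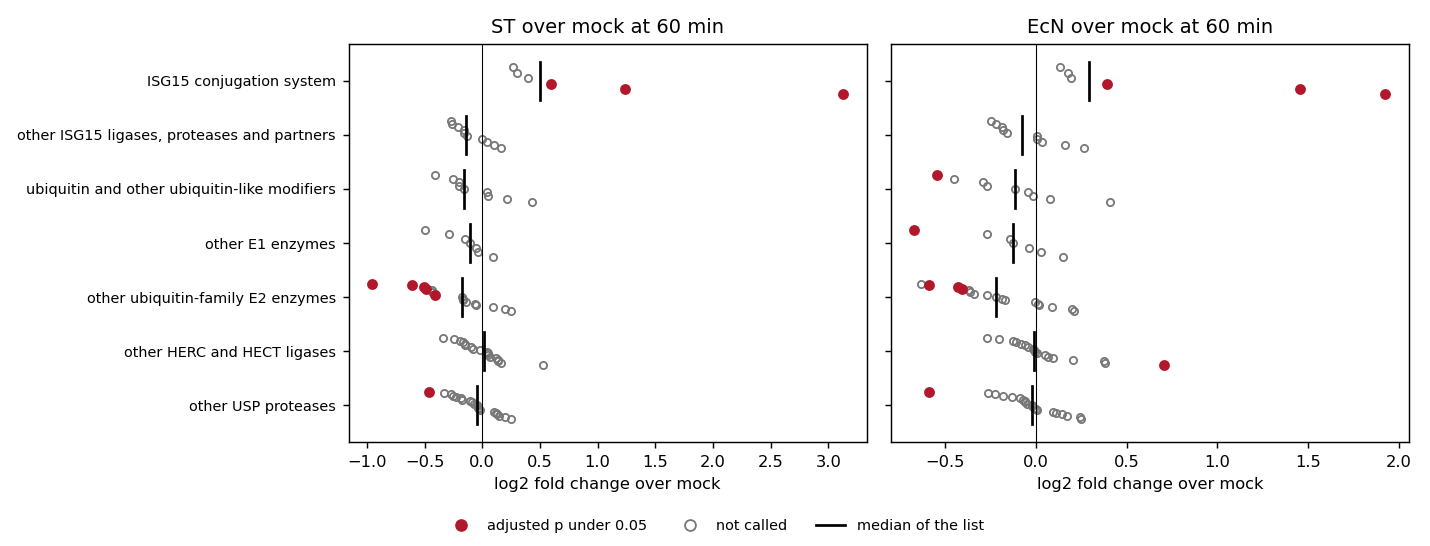
Log2 fold changes over mock at 60 min of the tested relatives of the members, 1 row per gene list and 1 point per gene, with ST in the left panel, EcN in the right, filled points called and a bar at the list's median. The E2 enzymes have their median at -0.17 with ST and -0.22 with EcN, while the member UBE2L6 lies at 1.24 with ST and 1.45 with EcN.

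Across the 29 other settings tried, the calls differed in how well they held. ISG15 with ST at 60 min was called in 28, the exception being the fit without the 6 arrays lettered C. HERC6 with ST at 60 min was called in 25, ISG15 and UBE2L6 with EcN at 60 min in 23 each, and ISG15 with ST at 120 min in 22. HERC6 with ST at 120 min was called in 13, UBE2L6 with ST at 60 min in 10, and HERC6 with EcN at 60 min in 9. None of these 8 values changed sign in any setting, and ISG15 with ST at 60 min ran from 3.02 to 3.33.

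**Figure D5:**
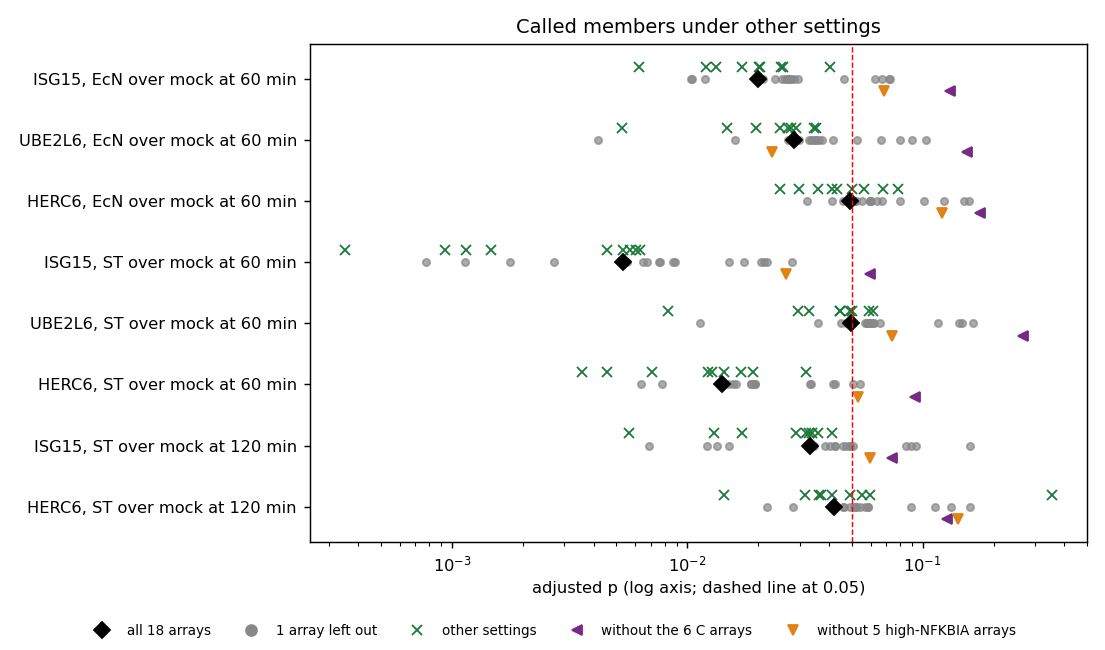
Benjamini-Hochberg adjusted p from limma (log axis, dashed line at 0.05) of the 8 called member values with all arrays, with 1 array left out, without the arrays lettered C or the 5 with high NFKBIA, and under the other settings. ISG15 with ST at 60 min stays under 0.05 in all settings but 1, the fit without the arrays lettered C, at 0.0598.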

How the data were processed

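Levels came from 18 human gene arrays. The authors deposited log2 values made with RMA in oligo 1.30.0, per the submitters' processing notes; no source used here names the annotation version or genome build. Values lay between 0.17 and 13.62 and array medians between 2.27 and 2.32, and were not normalized further. Arrays give no read depth, so their number sets the precision.

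Of 53617 rows, 23871 had 1 gene symbol in the platform annotation, 1842 had several and 27904 were not listed there. Symbols were updated through the RefSeq gene table of GRCh38.p14 (655 changed, 4 kept). Rows that exceeded the median of their array on 3 or more arrays were kept, and the row with the highest mean stood for a gene (399 genes had several), which left 16111 genes.

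limma 3.58.1 in R 4.3.3 was fitted with 6 group means on all arrays (12 residual and 4.20 prior degrees of freedom; eBayes, two-sided, Benjamini-Hochberg over all genes within each of 11 comparisons). The fit was tested on simulated data. The named genes were the 6 members, the 5 or 2 genes most like a member, every called gene of the lists (at most 3, by absolute log2 fold change, where more were called), and close relatives. IFNL2, IFI44L, NEFL, NEFM, VIM and the fourth gene where 4 of a list were called were added after their values were seen. Members, lists and the 5 high-NFKBIA arrays were chosen with earlier results of these data known. Alternatives were a replicate block, centring, quantile normalization, filters, the row rule, variance models, the compared groups alone, leaving out each array, the arrays lettered C, or the 5 high-NFKBIA arrays.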

Additional observations from a re-analysis of the deposited data

How the results depend on the processing

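The calls of the members were the same with the letter as a replicate block: 3 with ST and 3 with EcN at 60 min, 2 with ST and 0 with EcN at 120 min. The labels give a shared letter no meaning. Over all genes, deviations of same-lettered arrays correlated between -0.24 and 0.27, and 7 of 18 arrays were most like an array of their own letter. For ISG15 over mock at 60 min the SE was 0.30 with the block and 0.41 without it, and for UBE2L6 0.28 and 0.35. Members called with ST at 60 min numbered 0 without the arrays lettered C, 1 (ISG15) without the 5 high-NFKBIA arrays, and 1 to 4 when 1 array was left out. With EcN at 60 min they numbered 0 without the C arrays, 1 (UBE2L6) without the 5, and 0 to 3 when 1 array was left out. With ST at 120 min they numbered 1 with no filter, with array weights and with the compared groups alone, 0 without the C arrays and 0 without the 5, and 0 to 2 when 1 was left out. Fits that leave arrays out hold fewer samples, and the cause was otherwise not tested. For mock at 120 over 60 min 1 member (UBE2L6) was called without the 5, and 0 to 1 when 1 array was left out; for the change of the EcN effect 0 to 1. Without the C arrays 32 genes in all were called with ST and 14 with EcN at 60 min, beside 848 and 1039 with all arrays; without the 5, 335 and 993. At 120 min with ST these counts were 90 with all arrays, 0 without the C arrays, 127 without the 5 and 905 without mock 120 min A alone.

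Signs turned only for values that were not called, and the cause was not tested. Without the C arrays and without the 5 these were UBA7 with EcN at 120 min (-0.050 and -0.00037), HERC5 for ST over EcN at 120 min (0.13 each), HERC5 for EcN 120 over 60 min (-0.016 each), UBE2L6 (0.083 each) and HERC5 (0.035 each) for ST 120 over 60 min, HERC5 for the change of the EcN effect (-0.13 each), and UBA7 for the change of the ST effect (-0.030 and -0.020). Without the 5 alone they were UBE2L6 with EcN (-0.33) and ST (-0.11) at 120 min, USP18 (0.033) and HERC6 (0.0052) for mock 120 over 60 min, and USP18 for the change of the ST effect (-0.019). Array weights turned USP18 for mock 120 over 60 min (0.021) and UBA7 for the change of the ST effect (-0.052), which was also -0.015 with centring and -7.8e-05 with quantile normalization.

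With 1 array left out, the values whose sign turned ranged as follows. Over mock at 120 min, UBE2L6 ran from -0.13 to 0.61 with ST and from -0.19 to 0.58 with EcN, and UBA7 from -0.045 to 0.39 with EcN. For ST over EcN, UBE2L6 ran from -0.36 to 0.048 at 60 min and from -0.22 to 0.20 at 120 min, with UBA7 from -0.081 to 0.35 and HERC5 from -0.14 to 0.11 at 120 min. For 120 over 60 min, USP18 ran from -0.086 to 0.074 and HERC6 from -0.11 to 0.011 in mock; ISG15 from -0.35 to 0.67 and USP18 from -0.043 to 0.080 with EcN; and with ST UBE2L6 from -0.34 to 0.062, HERC5 from -0.13 to 0.017, USP18 from -0.012 to 0.16, HERC6 from -0.14 to 0.00059 and ISG15 from -0.11 to 0.29. For the change of the EcN effect, USP18 ran from -0.046 to 0.11, UBA7 from -0.22 to 0.21 and HERC5 from -0.087 to 0.16. For that of the ST effect, UBA7 ran from -0.092 to 0.10, USP18 from -0.014 to 0.18 and HERC6 from -0.10 to 0.060.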
